A study of Homo sapiens with 32 samples.

Results

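The nuclear RNA of an IGF2BP3 knockout was compared with the nuclear RNA of a non-targeting control in HEK293T, an established cell line derived from human embryonic kidney. The comparison used 6 of the 32 RNA libraries analysed: 2 of the IGF2BP3 knockout, prepared in batches 3 and 4, and 4 of the control, prepared in batches 1 to 4. Only batches 3 and 4 hold both groups. The libraries were chosen by their labels alone. Knockout cells were made by transiently transfecting non-integrating plasmids with 3 guide RNAs against the gene and GFP, sorting single GFP-positive cells and screening their colonies for the protein. The control was made in parallel with a guide without a mammalian target, the labels do not say whether it is a clone or a pool, and no cells received any other treatment. A knockout is 1 clone, so its 2 libraries repeat the same clone. The labels do not say whether libraries of a group come from separate cultures, so p-values measure only the spread between these libraries, which may be technical. What clone and genotype each contribute cannot be told apart. Total RNA of the same genotypes and batches, with the same numbers of libraries, served to show where the nuclear change differed, and 2 nuclear libraries of an IGF2BP2 knockout clone from batches 3 and 4 served as a second reference.

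IGF2BP3 belongs to a family of 3 RNA-binding proteins that recognise many mRNAs, among them N6-methyladenosine (m6A) marked ones, and that are known mainly for stabilising and localising mRNAs in the cytoplasm. IGF2BP proteins can also shuttle through the nucleus. Nuclear poly(A) RNA holds transcripts that have not yet left the nucleus, mRNAs with introns that are spliced late, and noncoding RNAs that stay there longer than most mRNAs.

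The nuclear libraries of the control and the IGF2BP3 knockout held 15992797 to 26093403 counts, and the matching total libraries 17466110 to 24690494. Levels are given as CPM, counts scaled to the total of the library, with control values in the order of batches 1 to 4 and knockout values in the order of batches 3 and 4. Changes are log2 ratios of knockout over control with their standard error (SE), fitted within batch after scaling by TMM, a trimmed mean of ratios. In fits with batch terms, controls 1 and 2 were alone in their batches. Fitted changes with their SE and p-values thus rest on the libraries of batches 3 and 4. The levels of controls 1 and 2 are shown beside them for range only. TMM factors of the nuclear libraries were 0.91 to 0.981 in the control and 1.06 and 1.07 in the knockout. Those of the total libraries were 0.93 to 0.936 in the control and 1.09 and 1.08 in the knockout. A fitted change thus lies below the ratio of CPM values in both kinds of RNA. All 8 markers of HEK293 cells passed the low-count filter, with a summed nuclear level of 944.4 to 1045.8 CPM in the control and 763 and 761.2 CPM in the knockout; 5 of the 8 were higher and 3 lower, with a median change of 0.78. Summed markers of blood cells were 3.68 to 3.88 CPM against 9.42 and 7.75 CPM, those of fibroblasts 35.5 to 40.8 CPM against 70.4 and 73.6 CPM, and those of differentiated epithelium 8.63 to 10.1 CPM against 4.98 and 5.54 CPM. Of these lists, 3 of 8 blood, 3 of 6 fibroblast and 2 of 6 epithelial markers could be tested, with 2 higher, 1 higher and 2 lower. CD3E, HBG1 and KRT5 were at 0 in the nuclear libraries, and COL1A1 made up most of the fibroblast sum. Their part in the results below was not tested.

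IGF2BP3 RNA itself, from chromosome 7 (23310209 to 23470467 on the minus strand, GRCh38), was lower but present. Its nuclear level was 65.2, 73.7, 71.8 and 74 CPM in the control and 39.5 and 42.6 CPM in the knockout, and the groups did not overlap. The nuclear change was -0.95 ± 0.085 (SE), with an adjusted p of 4.85e-12. Counts over a whole gene cannot show whether the remaining RNA codes for protein. The change in total RNA was -1.19, and the difference between nuclear and total RNA, 0.22, did not pass the test (adjusted p = 0.219). The related IGF2BP1 fell by 0.50 in nuclear RNA, from 312.1 and 311 CPM in batches 3 and 4 to 229 and 252.2 CPM. IGF2BP2 fell by 0.20, with an adjusted p of 0.037, and its groups, 58.2 to 67.2 CPM and 55.8 and 58.4 CPM, overlapped.

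More than 1 in 2 of the tested genes changed in nuclear RNA. Of 18486 tested genes, 10341 (55.9%) were called at an adjusted p under 0.05, 5146 of them higher (27.8%) and 5195 lower (28.1%). These shares are the reference for the nuclear counts of each gene list below. Changes of at least 1 on the log2 scale were more often upward, with 2114 genes higher (11.4%) and 706 lower (3.82%). In total RNA 11192 of 18613 genes (60.1%) were called, 5493 higher (29.5%) and 5699 lower (30.6%), and upper quartile scaling in place of TMM turned that split into 7146 higher and 4238 lower. Among 18061 genes tested in all fits, 3873 were higher and 4112 lower in both kinds of RNA, 1113 were called higher in nuclear RNA alone and 1015 lower in nuclear RNA alone. A call in 1 kind of RNA and not in the other is no test of a difference, so the difference was tested directly.

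Few genes were called for a difference between nuclear and total RNA. The nuclear change was called different from the total change for 1496 of 19180 genes (7.8%). Of these, 756 were higher in nuclear relative to total RNA (3.94%) and 740 lower (3.86%). These shares are the reference for the counts of differences in each gene list below. A gene that was not called was not shown to change alike in both kinds of RNA. At least 1 on the log2 scale separated the changes of 16 genes upward (0.0834%) and 60 downward (0.313%). Across 11935 genes of at least 5 CPM, the SD of the change was 0.60 in nuclear RNA and 0.59 in total RNA, and that of the difference was 0.26. The correlation of nuclear and total changes over these genes was 0.906, as a description across genes of the same clone. The count of differences rested on few libraries: it was 37 without control 3 of nuclear RNA, 160 without knockout 2 of total RNA, 212 without control 4 of total RNA and 258 without knockout 1 of nuclear RNA. It was 165 with no batch terms and 3050 with a replicate block, a term shared by nuclear and total RNA of the same genotype and batch. With DESeq2 it was 654. Of the 54 differences of named genes tested in this way, 46 lost their call without nuclear control 3 and 8 kept it: MALAT1 and 7 mitochondrial mRNAs. The calls of the other named genes therefore depend on that library. Most of the 54 also lost their call without knockout 1 of nuclear RNA, control 4 of total RNA or knockout 2 of total RNA. The part of the smaller number of libraries in these losses was not tested.

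**Figure D1:**
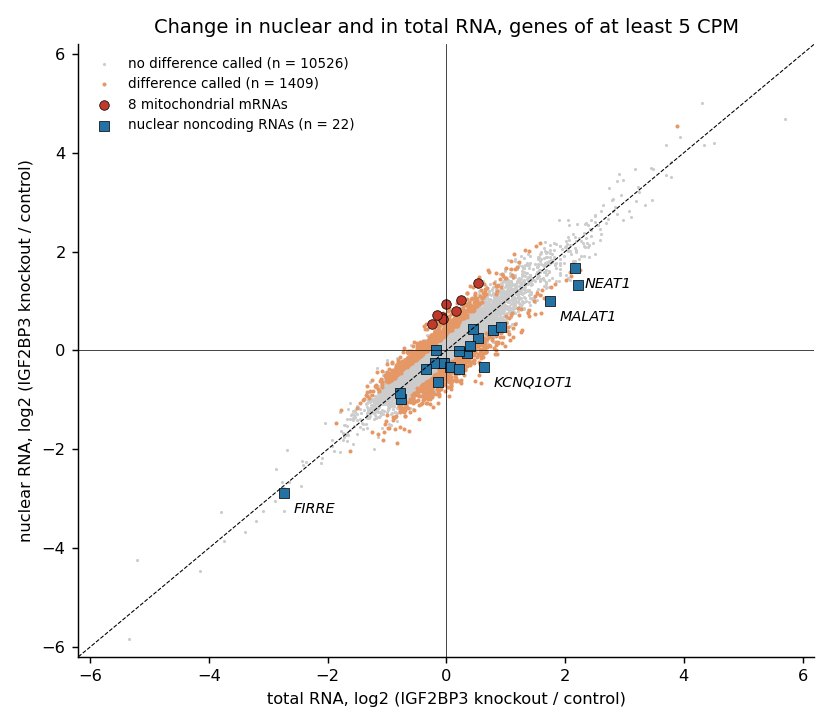
Each point is 1 of 11935 genes of at least 5 CPM, with the log2 change in total RNA on the horizontal and in nuclear RNA on the vertical axis. Orange marks the genes called for a difference between the changes. The 8 mitochondrial mRNAs (red) lie above the dashed line of equal change, and MALAT1 and KCNQ1OT1 (blue squares) below it.

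Mitochondrially encoded mRNAs were the list with the highest share of members called for the difference. These mRNAs are transcribed inside mitochondria and encode subunits of the respiratory chain and of ATP synthase. All mitochondrially encoded genes together took 2.33%, 2.02%, 2.06% and 2.42% of the nuclear counts in the control and 3.86% and 4.09% in the IGF2BP3 knockout. In total RNA the shares were 3.16%, 3.02%, 3.78% and 3.39% against 4.07% and 4.2%. The share of counts was thus higher in every knockout library of both kinds, with a gap of 1.77 percentage points in nuclear and 0.797 in total RNA (exact permutation test over libraries, p = 0.0667 for each, the smallest that 2 against 4 allows). These shares are not scaled by TMM. After scaling, the fitted changes of 8 of these mRNAs in total RNA had a median of -0.03. Cytoplasmic RNA of the same batches had shares of 8.43% and 7.98% in the control and 8.52% and 8.97% in the knockout. Nuclear shares were thus below the total shares in every control and close to them in the knockout, and all were below the cytoplasmic shares.

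For MT-CO2, a subunit of cytochrome c oxidase, nuclear levels were 2198.6, 1749.9, 1860.6 and 2213.2 CPM in the control and 4191.4 and 4292.8 CPM in the knockout. Levels in total RNA were 2880.4, 2731.2, 3493.3 and 3207.8 CPM against 3895.3 and 3886.6 CPM. The groups did not overlap in either, and the gap was wider in nuclear RNA. The fitted changes were 0.94 ± 0.0892 in nuclear and 0.00 ± 0.0587 in total RNA, a difference of 0.91 ± 0.1 (adjusted p = 3.02e-06). Of the 8 mitochondrial marker mRNAs, 8 rose in nuclear RNA, with a median of 0.75, while 3 rose and 2 fell in total RNA, with a median of -0.03, and 8 of 8 were called for the difference. MT-ND2, a subunit of complex I, had the highest nuclear change, 1.36, beside 0.53 in total RNA. MT-CO1 rose by 0.54 in nuclear RNA and was -0.24 in total RNA, and MT-CYB, of complex III, rose by 1.01 beside 0.24. Over all 30 tested mitochondrial genes, ribosomal and transfer RNAs included, 15 were called higher for the difference and 0 lower, with a median of 0.53 against -0.01 for all genes.

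Most of these calls were kept. Leaving out each library in turn, 7 or 8 of the 8 mRNAs were called for the difference, and DESeq2 called 8. Without batch terms 3 were called, at a median of 0.55. With only the controls of batches 1 and 2, an alternative chosen after seeing the data, 5 were called, at a median of 0.42. In the IGF2BP2 knockout the nuclear shares were 1.99% and 2.12%, and the median nuclear change of the 8 mRNAs was -0.14. The IGF2BP3 knockout lay above the IGF2BP2 knockout for 8 of 8 in the direct test (MT-CO2 1.01, adjusted p = 3.96e-12). It did so for 27.2% of all genes. Markers of the fractions also changed. The summed level of 8 cytoplasmic marker mRNAs was 17234 to 20095.8 CPM in nuclear controls and 15991.6 and 14708 CPM in the knockout. In total RNA it was 21665.5 to 23148.1 CPM against 16179.5 and 15454.8 CPM. Of the 8, 0 were higher and 4 lower in nuclear RNA, and 0 were higher and 8 lower in total RNA. The median change was -0.27 in nuclear and -0.68 in total RNA. For the difference 2 were higher and 0 lower, with a median of 0.23, the same direction as the mitochondrial mRNAs. The summed level of nuclear marker RNAs was 909.4 to 1494 CPM against 1963 and 2120 CPM in nuclear RNA and 893 to 988.6 CPM against 2027.2 and 2288.8 CPM in total RNA. Of 7 tested, 2 were higher and 3 lower in nuclear RNA, and 0 were higher and 4 lower for the difference, with a median of -0.39. How much mitochondrial material stayed with the nuclei was not measured, and its part in the result was not tested.

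**Figure D2:**
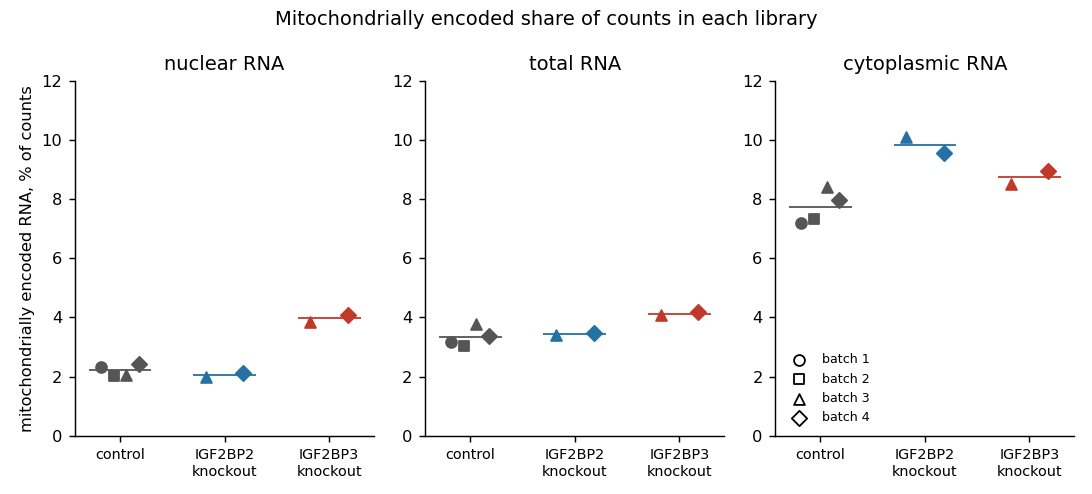
The share of counts from mitochondrially encoded genes is shown for each library of batches 1 to 4, with the batch as the symbol and the group mean as a line. The nuclear IGF2BP3 knockout libraries, at 3.86% and 4.09%, lie above the nuclear controls at 2.02% to 2.42%.

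Nuclear noncoding RNAs called for the difference lay on the other side: 8 of 23 were lower in nuclear relative to total RNA and 0 higher. NEAT1 is a noncoding RNA of paraspeckles (chromosome 11, 65422774 to 65445540, plus strand). Counts over a whole gene cannot tell its forms apart. How much of NEAT1 and MALAT1 the poly(A) libraries captured was not measured. NEAT1 stood at 157.1, 189.4, 248.5 and 215.8 CPM in the control nuclei and at 745.6 and 848.4 CPM in the knockout. In total RNA it was 192.7 and 159.9 CPM in batches 3 and 4 of the control and 849.4 and 998.9 CPM in the knockout. NEAT1 was thus far above all controls in both kinds of RNA. Its change was 1.66 ± 0.0873 in nuclear and 2.17 ± 0.0757 in total RNA, with a difference of -0.54 ± 0.121 (adjusted p = 0.00579).

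MALAT1, a nuclear speckle RNA encoded nearby (65497688 to 65506516), had nuclear levels of 81.6, 119.7, 103.7 and 111.7 CPM against 214.4 and 255 CPM. Its levels in total RNA were 85.6, 86.6, 93.2 and 78.5 CPM against 288.5 and 390.4 CPM, so the rise was steeper in total RNA. The change was 1.00 in nuclear and 1.75 in total RNA, a difference of -0.78 ± 0.133 (adjusted p = 0.000776). In cytoplasmic RNA MALAT1 stood at 19.1 and 20.6 CPM in controls 3 and 4 and at 113.2 and 103.7 CPM in the knockout. KCNQ1OT1, an antisense RNA of an imprinted locus on the minus strand of chromosome 11 (2608328 to 2699994), was called lower in nuclear and higher in total RNA. Its nuclear levels were 23.2, 31.8, 20.1 and 17.4 CPM against 13.5 and 19.4 CPM, where the groups overlapped, and its total levels 22.8, 24.9, 19.5 and 15.6 CPM against 29.4 and 35 CPM. The nuclear change was -0.33 and the total change 0.64, with a difference of -1 ± 0.172 (adjusted p = 0.000874). The nuclear fall of KCNQ1OT1 came from batch 3 (-0.68) and not from batch 4 (0.02), and its change was -0.04 without nuclear control 3 and also without knockout 1. The call for the difference was lost without nuclear control 3 (adjusted p = 0.0999).

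Of 23 tested nuclear noncoding RNAs, 8 rose and 10 fell in nuclear RNA (27.8% and 28.1% of all genes did). In total RNA 13 rose and 4 fell. For the difference 0 were higher and 8 lower (3.94% and 3.86% of all genes were), with a median of -0.33. MIR22HG, the host of miR-22, rose by 1.32 in nuclear and by 2.21 in total RNA. PURPL fell by 0.37 in nuclear RNA and was 0.21 in total RNA, and JPX, a noncoding regulator of X inactivation, was -0.05 beside 0.35. FIRRE, a nuclear RNA from the X chromosome, did not share the pattern: it fell by 2.89, from 15.5 to 26.7 CPM in the control to 4.01 and 3.8 CPM, and by 2.73 in total RNA. Among all 2920 tested long noncoding RNAs, 3 were higher (0.103%) and 114 lower (3.9%) for the difference, with a median of -0.19; the share of lower calls was that of all genes (3.86%). The lower calls of this class numbered 5 without nuclear control 3, 31 without knockout 1 of nuclear RNA, 17 without control 4 or knockout 2 of total RNA, 16 without batch terms and 25 with DESeq2, with medians from -0.13 to -0.18. In the IGF2BP2 knockout, whose libraries share the controls, that median was -0.27, and NEAT1, MALAT1 and KCNQ1OT1 differed by -0.86, -0.73 and -0.93. With only the controls of batches 1 and 2, the median of the 23 RNAs was -0.01 with 1 called higher and 4 lower. MALAT1 was the 1 member called for the difference without nuclear control 3 and also without batch terms, and with DESeq2 its adjusted p was 0.0549.

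mRNAs known for detained introns, which are spliced late and held in the nucleus, fell in nuclear RNA. Of 35 such mRNAs and splicing kinases, 2 rose and 24 fell, with a median of -0.40, against 9 and 20 in total RNA and a median of -0.19. For the difference 0 were higher and 12 lower (3.94% and 3.86% of all genes were). MAT2A, which makes S-adenosylmethionine and whose own intron is detained, fell from 455.5, 540.1, 577.2 and 522.6 CPM to 287 and 299.5 CPM, with no overlap. Its nuclear change was -1.03 and its total change -0.51, a difference of -0.55 ± 0.0949 (adjusted p = 0.000874). SRRM2, a scaffold of nuclear speckles, fell by 1.05 and by 0.70, and the splicing factor PRPF38B by 0.86 and 0.51. DDX17, an RNA helicase, was 0.03 in nuclear RNA and 0.49 in total RNA, a difference of -0.48 (adjusted p = 0.00468). Its nuclear levels of 2000.3 and 2162.8 CPM lay just above the 1426.6 to 1959.5 CPM of the control before scaling. NKTR fell by 0.59 beside -0.14. MAT2A in the IGF2BP2 knockout stood at 297.5 and 284.6 CPM, and the direct test between the knockouts gave -0.02 (adjusted p = 0.883, SE 0.0808). The list's count for the difference was 0 without nuclear control 3, 1 without batch terms and 18 with the replicate block. The adjusted p without nuclear control 3 was 0.0854 for DDX17 and 0.148 for NKTR. MAT2A lost its call without nuclear control 3 (adjusted p = 0.0511) and in no other alternative run.

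Protein-coding genes differed by the length of their exons. Genes of at least 1 CPM were split by exonic length into 4 groups of equal size. In the shortest group, with a median of 2498.5 bases, 13.4% were higher and 0.808% lower in nuclear relative to total RNA, with a median of 0.18. In the longest, with a median of 10049 bases, 1.27% were higher and 9.44% lower, with a median of -0.11. The groups between had medians of 0.05 and -0.02. These counts of calls rested on single libraries: the shortest group had 432 genes higher and the longest 304 lower, and these numbers were 6 and 5 without nuclear control 3, 46 and 41 without knockout 1 of nuclear RNA, 69 and 22 without control 4 of total RNA, 32 and 33 without knockout 2 of total RNA, and 46 and 21 without batch terms. The medians moved less, to 0.15 and -0.10 without nuclear control 3. In nuclear RNA alone the medians ran from 0.08 in the shortest to -0.11 in the longest group, and the IGF2BP2 knockout, against the same controls, had differences from 0.27 to -0.07. The order of the medians was kept with only the controls of batches 1 and 2, from 0.16 to -0.05, and without batch terms, from 0.14 to -0.10.

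**Figure D3:**
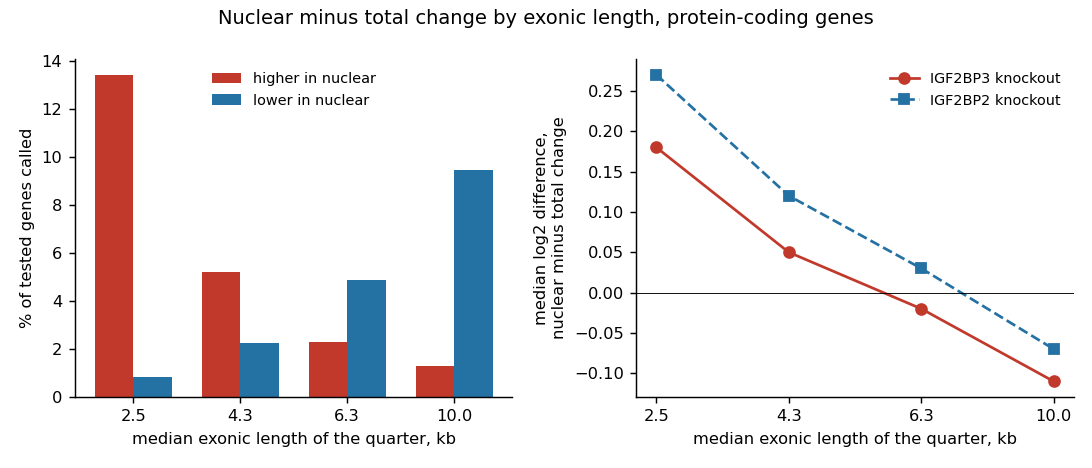
The left panel gives the percentage of protein-coding genes called higher (red) or lower (blue) in nuclear relative to total RNA in 4 groups of exonic length; the right panel gives the median difference for both knockouts. Red bars shrink from 13.4% to 1.27% and blue bars grow from 0.808% to 9.44% as genes get longer; without nuclear control 3 the calls drop to 6 higher in the shortest and 5 lower in the longest group.

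Interferon-stimulated genes, which type I interferon and the factors IRF and STAT induce and many of which restrict viruses, were mostly higher in the nuclei of the knockout. Because many carry an interferon-stimulated response element (ISRE) near their start, the promoters were searched for GAAANNGAAA on both strands in the 250 bases before the start, from RefSeq windows on GRCh38.p14. Stretches around the match nearest the start are shown for 5 genes that rose and for 2 that did not, with the match in capitals and the strand of the gene as given.
IFI6 (chr1:27672266-27672295, minus strand): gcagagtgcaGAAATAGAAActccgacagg
IFITM1 (chr11:313990-314019, plus strand): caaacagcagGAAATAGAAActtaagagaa
OAS3 (chr12:112938452-112938473, plus strand): agccgggcggGAAAACGAAAcc
EPSTI1 (chr13:42992272-42992301, minus strand): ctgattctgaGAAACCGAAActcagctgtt
TAP1 (chr6:32853813-32853842, minus strand): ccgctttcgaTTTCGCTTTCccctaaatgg
ISG15 (chr1:1013380-1013409, plus strand): tcgggaaaggGAAACCGAAActgaagccaa
PLSCR1 (chr3:146544667-146544696, minus strand): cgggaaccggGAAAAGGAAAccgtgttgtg
The match was present in 839 of 27305 promoters in the table (3.07%). Of the listed genes that rose in nuclear RNA, 26 had a promoter entry and 15 of these held it (57.7%), against 3 of 5 that fell and 7 of 10 that were tested and not called. Of the members too low to be tested, 6 of 15 held it. The letters were thus at least as frequent among tested members that did not rise as among those that rose.

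Of 50 tested interferon-stimulated genes, 33 rose and 5 fell in nuclear RNA, with a median of 0.87 against 0.01 for all genes. In total RNA 35 of 51 rose and 5 fell, with a median of 0.6, so the rise was not particular to nuclear RNA. OAS3, which makes the activator of RNase L, stood at 2.17, 3.07, 2.36 and 1.25 CPM in the control and at 20.7 and 23.7 CPM in the knockout. No control came near the knockout, and the change was 3.45 ± 0.184 (adjusted p = 3.25e-18), beside 2.98 in total RNA. EPSTI1 went from 0.434 to 0.774 CPM to 5.03 and 4.85 CPM, and SP110, a nuclear body protein, from 0.145 to 0.361 CPM to 2.52 and 2.85 CPM. Of the members shown above that did not rise, ISG15, a ubiquitin-like modifier, was -0.28 and was not called, and PLSCR1, a phospholipid scramblase, fell by 0.91. Of the 67 listed genes 17 were too low to be tested, among them RSAD2, OAS1 and MX2, so the count covers only members with reads.

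Of the 51 interferon-stimulated genes tested for the difference, 5 were called higher in nuclear relative to total RNA and 0 lower. Of all tested genes 3.94% were higher and 3.86% lower. IFI6 stood at 5.11, 4.56, 4.92 and 5.5 CPM in control nuclei and at 25.1 and 21.5 CPM in the knockout, while total RNA gave 4.01 to 4.84 CPM against 13.2 and 12.7 CPM. The levels in total RNA were thus alike in the controls and lower in the knockout than in its nuclei. The changes were 2.04 and 1.33, and the difference was 0.69 ± 0.201 (adjusted p = 0.0303). IFITM1, a membrane protein that blocks viral entry, rose by 1.13 in nuclear and 0.48 in total RNA, TAP1, a peptide transporter of antigen presentation, by 1.07 and 0.60, and HLA-B by 0.81 and 0.38. IFITM genes and HLA genes have close relatives, and reads could be split between them. Without nuclear control 3 the calls of IFI6, IFITM1 and TAP1 were lost, with adjusted p of 0.334, 0.231 and 0.193 and differences of 0.50, 0.54 and 0.44, and each was also lost without other single libraries.

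Of 44 genes of innate sensing and interferon signalling, 14 were higher and 8 lower in nuclear RNA, with a median of 0.05; in all, 22 were called, no larger a share than among all genes (55.9%). IRF7, a transcription factor of the interferon response, had 1.42 to 2.27 CPM in the control and 10.2 and 8.28 CPM in the knockout, a change of 2.12 ± 0.211 (adjusted p = 7.65e-11). The IGF2BP2 knockout had 0 and 0.0904 CPM, so the clones lay on opposite sides of the control. MYD88, an adaptor of Toll-like receptors, fell by 1.47, from 9.44 to 13.6 CPM to 4.12 and 3.43 CPM, and RELB, of the NF-kB family, rose by 1.39. IFNGR2, a chain of the interferon gamma receptor, rose by 0.74 in nuclear and 0.20 in total RNA, a difference of 0.52 ± 0.105 (adjusted p = 0.00319). MAVS, the mitochondrial adaptor of RNA sensing, fell by 0.58 in nuclear RNA, from 124.6 to 134.4 CPM to 88.1 and 104.7 CPM, and was -0.12 in total RNA (difference -0.48, adjusted p = 0.00358). IFNGR2 and MAVS kept these calls without batch terms and lost them without nuclear control 3 (adjusted p of 0.12 and 0.103).

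Called genes with a mean of at least 1 CPM over the nuclear libraries of batches 3 and 4, IGF2BP2 knockout included, were ranked by change. Those with the largest changes were at or near 0 in one of the groups, which such a ranking favours. PTN, a growth factor, had 0 counts in the 4 nuclear controls and 3.32 and 2.32 CPM in the knockout, which is at least 77.1-fold higher against a floor of 3 counts over the 4 controls together. PLD5, B3GALT5 (a galactosyltransferase), KCNA1 (a potassium channel), THBS1 (thrombospondin) and CLCN4 (a chloride transporter) had 1 to 4 counts over all controls and 83 to 195 counts in the knockout. The ratio of pooled levels was 92.4 for KCNA1 (95% interval from counting error alone 30.9 to 454.2) and 425.8 for PLD5 (75.5 to 16901.9). In the other direction GSPT2, a termination factor gene on the X chromosome, went from 3.63 to 4.94 CPM to 0 in both knockout libraries, at least 51.4-fold lower. HAAO, of the kynurenine pathway, was at least 26-fold lower, C1GALT1C1L at least 14.5-fold and TPTEP1 at least 6.26-fold. TPTEP1 had 0.361 to 0.675 CPM in the control and passed the level filter through the IGF2BP2 knockout, at 3.43 and 2.71 CPM. TWIST2 and STEAP1B had 1 count in the knockout. GSPT2, C1GALT1C1L and STEAP1B also had 0 in both total RNA libraries of the knockout, and HAAO, TPTEP1 and TWIST2 had 0 and 0.0497 CPM there. In nuclear RNA PTN was at 2.56 and 2.76 CPM in the IGF2BP2 knockout, close to the IGF2BP3 knockout.

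Among genes with a mean of at least 100 CPM over the nuclear libraries of batches 3 and 4, LRATD2 fell most, from 380.3, 420.7, 337.7 and 331 CPM to 15.8 and 17 CPM, a change of -4.47 ± 0.0958. AMOT, an angiomotin of the Hippo pathway, fell from 716 to 1030.8 CPM to 81.6 and 87.6 CPM (-3.25). NEFM, a neurofilament subunit that HEK293 cells express, fell by 2.67, and CA2, carbonic anhydrase, by 2.23. EGR1, an immediate early transcription factor, rose by 2.53 to 97.4 and 101.4 CPM, KIF1A, a kinesin, by 2.44 and C12orf57 by 1.97. In none of these named genes did the groups overlap, which goes with choosing them by the size of their change. None of them was called for a difference between nuclear and total RNA (LRATD2 came nearest, -0.34, adjusted p = 0.0518). LRATD2, CA2 and KIF1A were at -4.01, -2.65 and 2.71 in the IGF2BP2 knockout against the same controls, while NEFM was at -0.17. Among noncoding RNAs LINC01694 fell by 3.67 and BOLA3-DT by 2.05, and LMNTD2-AS1, LINC01977 and ICMT-DT rose by 2.32, 2.17 and 2.01.

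**Figure D4:**
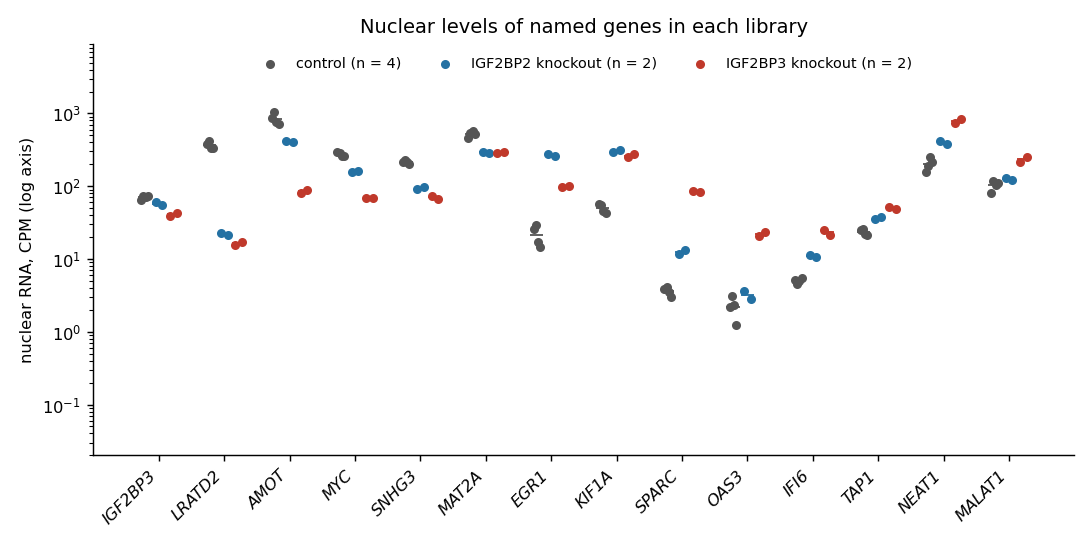
Nuclear CPM of 14 named genes is shown on a log axis for each library of the control (grey), the IGF2BP2 knockout (blue) and the IGF2BP3 knockout (red), with group means as lines. Red points lie outside the grey range for each gene drawn, all of them picked from the named genes called in nuclear RNA. AMOT is lower and SPARC higher in the IGF2BP3 than in the IGF2BP2 knockout.

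Immediate early genes, which growth factor and stress signals switch on within minutes, were higher in the knockout nuclei. Of 39 tested, 27 rose and 2 fell, with a median of 0.77, and 23 rose and 4 fell in total RNA. FOS stood at 8.2, 9.85, 7.71 and 6.38 CPM in the control and 67.2 and 58.5 CPM in the knockout, a change of 3.02 ± 0.109 (adjusted p = 2.56e-23). CCN2, a target of YAP and of TGF-beta, rose by 2.53. JUND, a Jun family factor, rose by 0.52 in nuclear RNA, from 34.5 to 43.4 CPM to 67.3 and 62.9 CPM, and was 0.03 in total RNA, where batches 1 and 2 of the control (73.4 and 80.9 CPM) differed from batches 3 and 4 (40.2 and 40.1 CPM). JUNB rose by 1.79 and 1.23. JUND and JUNB were not called for the difference without nuclear control 3 (adjusted p of 0.179 and 0.235). In the direct comparison with the IGF2BP2 knockout 20 of the 39 genes were lower and 3 higher in the IGF2BP3 knockout. Of all tested genes 27.1% were lower and 27.2% higher. EGR1 was at -1.44.

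The integrated stress response, which ATF4 drives when amino acids run short or proteins misfold, changed in both directions, with 10 of 26 genes higher and 12 lower. Of all tested genes 27.8% were higher and 28.1% lower. CHAC1, which degrades glutathione, rose by 1.72, GDF15 by 1.80 and NUPR1 by 1.60, whereas ASNS, asparagine synthetase, fell by 0.88 in nuclear RNA beside -0.26 in total RNA (difference -0.64, adjusted p = 0.013). The amino acid transporter chain SLC3A2 rose by 0.46 beside 0.06, and the serine synthesis enzyme PHGDH was 0.04 beside -0.38. Without nuclear control 3 the differences of ASNS, SLC3A2 and PHGDH had adjusted p of 0.23, 0.0882 and 0.102, and with only the controls of batches 1 and 2 that of SLC3A2 turned from 0.37 to -0.42. In 22 of 26 genes the IGF2BP3 knockout lay below the IGF2BP2 knockout and in 0 above it. Of all tested genes 27.1% lay below and 27.2% above. Cholesterol genes had 7 of 22 higher and 5 lower in nuclear RNA, near the shares of all genes, and 5 and 12 in total RNA. SC5D rose by 1.32 and SQLE and CYP51A1 fell by 1.04 and 0.98, and DHCR7, at 0.02 beside -0.34, was the 1 member called for the difference, and its nuclear change was -0.49 with only the controls of batches 1 and 2.

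Hosts of small nucleolar RNAs, whose spliced RNAs are short-lived in the cytoplasm, fell together. In nuclear RNA 1 of 22 was higher and 15 were lower, with a median of -0.69. Total RNA had 1 higher and 17 lower, with a median of -0.57. SNHG3 fell from 212.2, 230.6, 211.9 and 204.3 CPM to 73.3 and 67.1 CPM (-1.69 ± 0.0819), and SNHG4 and SNHG15 fell by 1.31 and 1.03. SNHG4 was the 1 member called for the difference (-0.33, adjusted p = 0.0338), and most single libraries left out ended that call (highest adjusted p 0.325). With only the controls of batches 1 and 2 the list had 5 higher and 13 lower. DNA replication genes had 2 of 29 higher and 17 lower in nuclear RNA, and 1 higher and 20 lower in total RNA. MCM6, of the replicative helicase, fell by 0.76, the ligase LIG1 by 0.66 and the polymerase subunit POLD1 by 0.64. For the difference 5 were higher and 1 lower (3.94% and 3.86% of all genes were). The higher ones included the licensing factor CDT1 (-0.45 in nuclear, -0.84 in total RNA) and RRM1 (0.14 and -0.27). CLSPN was the lower one (-0.27 and 0.14). Leaving out nuclear control 3 gave an adjusted p of 0.118 for CDT1, 0.14 for RRM1 and 0.219 for CLSPN.

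Writers, erasers and readers of m6A, the mark that IGF2BP proteins can bind, had 0 of 20 higher and 12 lower in nuclear RNA. Total RNA had 0 higher and 13 lower. HNRNPA2B1 fell by 0.62 and the methyltransferase METTL16 by 0.61. RBM15, which guides the writer complex, fell by 0.75 in nuclear RNA, from 57.7 to 69.2 CPM to 41.6 and 43.3 CPM, and by 0.26 in total RNA, a difference of -0.52 ± 0.106 (adjusted p = 0.00338). RBM15 lost that call without nuclear control 3 (adjusted p = 0.0818), without knockout 1 of nuclear RNA and without batch terms (0.0993). Of 29 mRNAs described as IGF2BP targets, 9 rose and 16 fell in nuclear RNA (27.8% and 28.1% of all genes did). MYC fell from 297.8, 289.3, 262.6 and 257.1 CPM to 69 and 68.8 CPM (-2.04 ± 0.0814) and by 1.90 in total RNA, with a difference of -0.17 (adjusted p = 0.324). IGF2, a growth factor mRNA from which the family takes its name, rose from 0.938 to 1.34 CPM to 8.35 and 8.91 CPM (2.79). CD44, an adhesion receptor, rose by 1.59 at levels under 2 CPM. ACTB, coding for beta-actin, fell by 0.21 in nuclear and 0.60 in total RNA, FSCN1 by 0.34 and 0.75, and the proliferation marker MKI67 was -0.21 and 0.18. These 3 were the members called for the difference, and ACTB, FSCN1 and MKI67 lost the call without nuclear control 3 (adjusted p of 0.172, 0.204 and 0.208) and without other single libraries.

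Extracellular matrix genes rose more often than they fell. In nuclear RNA 21 of 38 collagens, laminins and receptors were higher and 7 lower, with a median of 0.49. Total RNA had 23 higher and 9 lower, with a median of 0.54. SPARC, a collagen-binding matrix protein, had 3.82, 4.18, 3.52 and 3 CPM in control nuclei and 85 and 83.8 CPM in the knockout (4.55 ± 0.123), beside 3.89 in total RNA, with a difference of 0.64 (adjusted p = 0.0401) that lost its call on leaving out single libraries (adjusted p of 0.142 without nuclear control 3, 0.224 without knockout 2 of total RNA). COL12A1 rose by 4.68, from 0.413 to 0.964 CPM to 21.9 and 22.7 CPM, and the collagen receptor DDR2 fell by 3.46, from 38.2 to 71 CPM to 6.31 and 7.43 CPM. COL1A1, which is also a fibroblast marker, rose by 0.86, while COL1A2, LUM and DCN, defining markers of fibroblasts, were too low to be tested in nuclear RNA. Of 34 neuronal adhesion and guidance genes, 17 rose and 9 fell in nuclear RNA (27.8% and 28.1% of all genes did). ASTN1 had 4 counts over the 4 controls and 7.44 and 6.85 CPM in the knockout, CDH4 rose by 3.45, CDH2, N-cadherin, by 1.52 in nuclear and 1.11 in total RNA, and TENM1 fell by 3.24. NLGN2, a synaptic adhesion protein, was -0.02 beside 0.29. The differences of CDH2 and NLGN2 had adjusted p of 0.203 and 0.305 without nuclear control 3.

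HOX genes, which set positional identity, had 9 of 38 higher and 19 lower in nuclear RNA (27.8% and 28.1% of all genes were). For the difference 0 were higher and 6 lower (3.94% and 3.86% of all genes were). HOXD4 showed the widest gap, with 10.2, 13.2, 15.7 and 13.9 CPM in control nuclei and 8.88 and 10.4 CPM in the knockout, where the groups overlapped, and 8.02 to 9.73 CPM against 10.6 and 10.2 CPM in total RNA of batches 3 and 4. Its change was -0.74 in nuclear and 0.01 in total RNA (difference -0.78 ± 0.174, adjusted p = 0.00585). HOXD4, HOXD10 and HOXC8 lost the call for the difference without nuclear control 3 (adjusted p of 0.12, 0.193 and 0.203). HOXD10 fell by 1.17 and 0.70, HOXD9 by 1.19 and 0.79, and HOXC8 by 0.52 beside 0.04 in total RNA. HOXC12 rose by 2.94.

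**Figure D5:**
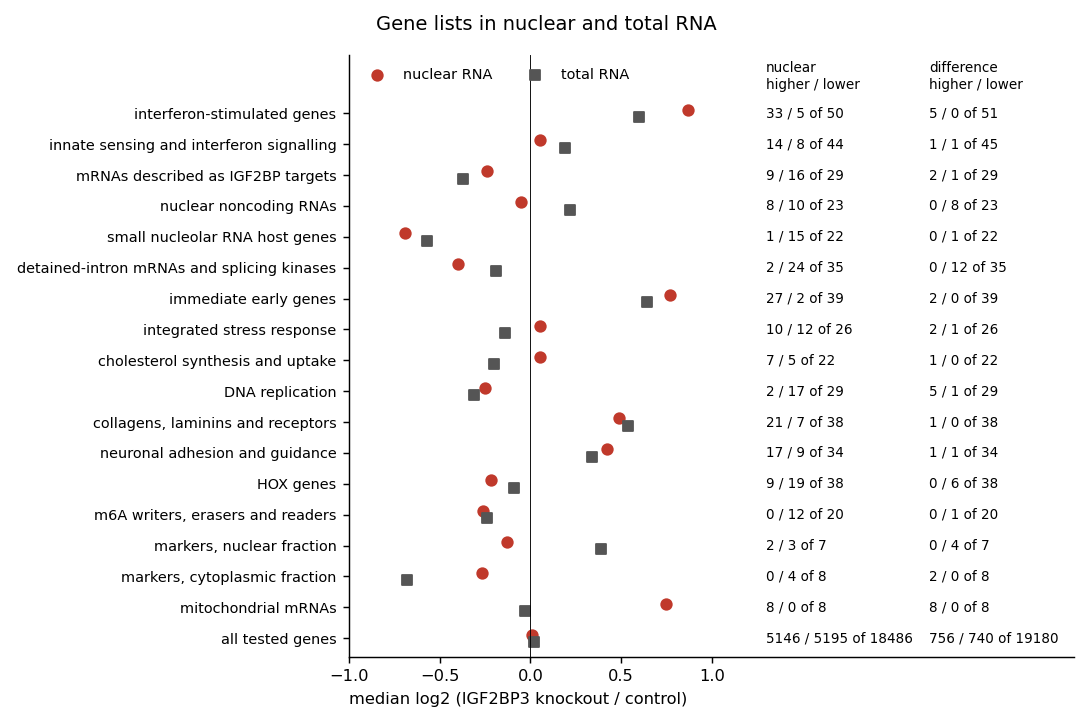
Median log2 change of each gene list in nuclear (red circles) and total RNA (grey squares); the columns give how many members were called higher and lower in nuclear RNA and for the difference. Mitochondrial mRNAs stand at 0.75 in nuclear and -0.03 in total RNA, and nuclear noncoding RNAs at -0.05 and 0.22.

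Genes called in opposite directions in nuclear and total RNA were rare, 103 of 18061, and 102 of these were called for the difference. Both counts come from the same libraries, so the second is no independent support for the first. Beside KCNQ1OT1 they included ZNF417, a zinc finger gene (-0.61 in nuclear and 0.48 in total RNA), ATP6AP1L (-0.32 and 0.66) and TMEM160 (0.50 and -0.38). ZNF417 had 7.84, 10.3, 9.79 and 8.63 CPM in control nuclei and 4.98 and 8.22 CPM in the knockout, so the nuclear groups overlapped. ATP6AP1L had 3.97, 6.09, 10.5 and 9.57 CPM in control nuclei, around the 8.35 and 9.07 CPM of the knockout, and its nuclear change turned to 0.07 without the batch term and to 0.54 with only the controls of batches 1 and 2. Without nuclear control 3 the differences of ZNF417, ATP6AP1L and TMEM160 had adjusted p of 0.0985, 0.053 and 0.173. SNORD3A, the U3 small nucleolar RNA, had the largest difference among the named genes called for one, 2.66 ± 0.6 (adjusted p = 0.00624). It rested on single libraries: knockout 1 of nuclear RNA had 6.58 CPM against 1.95 CPM in knockout 2, and control 4 of total RNA had 3.15 CPM against 0.427 to 0.749 CPM in the other controls. Without these libraries in turn the difference was 1.52 and 1.23 and was not called. U3 has no poly(A) tail and several copies.

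Most of the other largest differences were in genes of a few CPM. H4C8, a replication-dependent histone gene, had 0.563 to 1.19 CPM in control nuclei and 5.67 and 4.69 CPM in the knockout, with changes of 3.06 in nuclear and 1.39 in total RNA. H2BC6, also a histone gene, had the opposite order, 1.52 in nuclear and 2.85 in total RNA. Counts of histone genes as a class rose in nuclear RNA for 26 of 41 genes (63.4%, against 27.8% of all genes) and fell for 0. The libraries were made from poly(A) RNA, and how much of the histone RNA they captured was not measured. The rise was not particular to nuclear RNA, with medians of 1.21 in nuclear and 1.31 in total RNA. For the difference 4 were higher and 1 lower (0 and 0 without nuclear control 3). HLA-H, LYPD6B, C19orf73 and the pseudogene RPS14P8 were higher for the difference (1.37, 1.32, 1.20 and 1.15), and NOXRED1, ZFHX2-AS1, SOGA3, MICE and RDH5 lower (-1.89, -1.59, -1.41, -1.35 and -1.34). Without nuclear control 3 none of these differences was called, with adjusted p from 0.122 for LYPD6B to 0.399 for RDH5, H4C8 (0.156) and H2BC6 (0.238) included. Histone genes, HLA-H, MICE and RPS14P8 have near copies, and their counts are uncertain where reads were split among them.

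The nuclear RNA of the IGF2BP3 knockout also differed widely from that of the IGF2BP2 knockout. The direct test called 10037 of 18486 genes (54.3%), 5026 higher (27.2%) and 5011 lower (27.1%) in the IGF2BP3 knockout, and 1402 (7.58%) and 805 (4.35%) by at least 1 on the log2 scale. Interferon-stimulated genes were higher in 27 of 50 and lower in 10, with OAS3 at 2.79 (adjusted p = 1.55e-16), cholesterol genes higher in 17 of 22 and lower in 1, and nuclear noncoding RNAs higher in 13 of 23 and lower in 6. AMOT and NEFM were lower by 2.31 and 2.50. Both knockouts are single clones compared with the same controls, so their medians against control, such as 0.43 for interferon-stimulated genes and 1.13 for immediate early genes in the IGF2BP2 knockout, are given only beside those of IGF2BP3.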

How the data were processed

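Per the labels, a subcellular isolation kit gave the nuclear and total RNA of HEK293T cells, from which strand-preserving poly(A) libraries were sequenced as paired ends. The submitters' processing notes name STAR, featureCounts and DESeq2 1.44.0 and the build GRCh38, without roles. The authors deposited raw read counts per Ensembl gene, used here, and FPKM values, used only in alternatives; from the values the deposited FPKM use the whole gene span, introns included (median implied length over exonic length 5.98).

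Nuclear and total counts of the control, IGF2BP2 and IGF2BP3 libraries were each fitted with edgeR 4.0.16 (R 4.3.3) quasi-likelihood, TMM, the default low-count filter, a batch term and knockout terms. The difference was a knockout-by-kind term over 16 libraries. Benjamini-Hochberg adjustment ran over all tested genes; the threshold was 0.05. IGF2BP1 knockout libraries were left out because a nuclear and a total column are identical. Batches come from the labels; deviations of same-batch nuclear and total libraries correlated at 0.22 to 0.29 in the control and the IGF2BP3 knockout and at 0.03 in the IGF2BP2 knockout. Positions are from GENCODE 29. Alternatives used limma 3.58.1, DESeq2 1.42.0, other scalings, filters and libraries. Fits were tested on simulated data. The members and lists, and the rule naming the strongest genes per list, direction and level, were chosen with earlier results of these data known. Intervals cover counting error only. A gene that the naming rule selects is not reported here.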

Additional observations from a re-analysis of the deposited data

Results flagged for a closer look

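The change in the IGF2BP3 knockout differed between nuclear and total RNA for 1496 genes by the test of the difference itself. In 3 of 104 sets of nuclear control values a library lay apart from the other 3 by more than Dixon's 95% critical value, where chance alone gives about 1 in 20. GSPT2 was 4.94 CPM in control 2 against 3.63 to 3.77 CPM in the others. IGF2 was 0.938 CPM in control 4 against 1.3 to 1.34 CPM. NKTR was 283.7 CPM in control 1 against 364.4 to 376.7 CPM.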

How the results depend on the processing

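The nuclear count stayed between 7066 (DESeq2) and 11643 (controls of batches 1 and 2 only, an alternative chosen after seeing the data), and leaving out each library gave 7312 to 10880. Leaving out nuclear control 1 or 2, each alone in its batch, could change only scaling, filtering and the shared spread (10256 and 10355 genes). DESeq2 called 7407 genes in total RNA and 6638 between the knockouts in nuclear RNA. Upper quartile scaling moved the median of all genes to 0.102 in nuclear and 0.15 in total RNA, with 6098 higher and 4135 lower nuclear calls and 7146 higher and 4238 lower total calls. Without a replicate block (batch term dropped) 9925 nuclear genes were called. For the difference, the replicate block gave 3050, no batch terms 165, DESeq2 654 (423 higher, 231 lower), controls of batches 1 and 2 only 3947, mitochondrial genes left out of the counts (also chosen after seeing the data) 1535, and leaving out each library 37 to 2510, with 68.4% of 212 calls higher without total control 4, 70.3% of 37 without nuclear control 3 and 61.5%, 61.1% and 61.6% without nuclear controls 1 and 2 and total control 2. The cause was not tested. Of 54 named differences, 8 kept their call without nuclear control 3, 10 without batch terms and 54 with the replicate block.

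Directions changed as follows. With controls of batches 1 and 2 only, nuclear changes were 0.54 for ATP6AP1L, 0.33 for C19orf73, -0.49 for DHCR7, 0.24 for NLGN2, 0.82 for NOXRED1 and -0.07 for RRM1, and differences 0.08 for ATP6AP1L, -0.05 for CDH2, 0.21 for NLGN2 and -0.42 for SLC3A2. With the batch term dropped, nuclear changes were 0.07 for ATP6AP1L, 0.06 for C19orf73, -0.25 for DHCR7, 0.12 for NLGN2 and 0.30 for NOXRED1, and NLGN2 was 0.07 with upper quartile scaling. Leaving out single nuclear libraries, nuclear changes ranged from -0.36 to 0.00 for C19orf73, from -0.11 to 0.15 for DDX17, from -0.02 to 0.05 for DHCR7, from -0.11 to 0.07 for NLGN2, from -1.02 to 0.50 for NOXRED1 and from -0.01 to 0.09 for PHGDH. The nuclear fit had 2 residual degrees of freedom, which limits its estimate of spread.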
